A study of Mus musculus with 15 samples.

Results

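The genes described here are named as genes for proteins of the mitochondrial ribosome, in primary chondrocytes given inhibitors of cell signalling or of histone deacetylases. The set was picked with earlier results of these data known. Its members were taken by name alone: every gene whose symbol in the platform annotation starts with Mrpl or Mrps and a digit. This gave 76 genes, 47 named Mrpl and 29 named Mrps, of 18194 genes with a probe set of their own on the array. They were read by 156 of the 45101 probe sets, and 42 of the 76 genes had more than 1. Another 4 probe sets read 1 of these genes together with a different gene and were left out, so that Mrpl30 and Mrpl53 have no value here.

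The cells were chondrocytes freed from the tibiae, femurs and humeri of CD1 mouse embryos of embryonic day 15.5, grown in monolayer and treated for 24 h. Each of 5 groups was measured on 3 Affymetrix MOE 430 2.0 arrays: DMSO, the vehicle, as the control, LY294002 (10 µM, an inhibitor of phosphoinositide 3-kinase), UO126 (10 µM, an inhibitor of the MEK kinases), SB202190 (10 µM, usually described as an inhibitor of p38 kinase) and TSA (trichostatin A, an inhibitor of histone deacetylases, whose dose is not used here). The labels give all 5 groups the same strain and stage and a medium with ascorbic acid and β-glycerophosphate, and do not say how many embryos went into a culture. In such bulk RNA fewer cells of a type and less RNA per cell cannot be told apart.

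Mitochondria keep a small genome whose messenger RNAs code for core subunits of the respiratory chain and of ATP synthase, and these are translated by a ribosome of their own. Its RNA comes from the mitochondrial genome, but all of its proteins are encoded in the nucleus, made in the cytosol and imported. Some are the counterparts of bacterial ribosomal proteins, inherited from the bacterial ancestor of mitochondria, and others are specific to mitochondria. The large subunit (Mrpl genes) joins amino acids and the small subunit (Mrps genes) reads the messenger RNA. Mrps30 is named after the small subunit but sits in the large one, and Mrps36 is now known as a component of the α-ketoglutarate dehydrogenase complex. Promoters of such genes are known for binding sites of NRF1, YY1 and the ETS factor GABP, which is made of Gabpa and a Gabpb partner.

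All 13 cartilage markers looked for were measured, Col2a1 with a signal of 5700.0 and Acan with 2515 as the means of the DMSO arrays, so the RNA carried the defining genes of the labelled cell type. Fibroblast markers were measured too (9 of 9), as were 12 of 13 skeletal muscle markers and 6 of 12 macrophage markers. Of 8 endothelial markers 3 were measured, and Pecam1, Cdh5, Tek, Tie1 and Emcn stayed under a mean signal of 50 in every group. Arrays of the same group correlated at r = 0.967 to 0.981 across the genes tested. The study's methods describe the DMSO and LY294002 RNA as coming from 3 independent experiments. For UO126, SB202190 and TSA the series description calls the arrays biological replicates, with no word on separate experiments. If the cultures of these groups were not separate, their spread is technical only.

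To show what lies before the start sites of some genes named below, 250 bases upstream of 7 of them are printed from RefSeq (GRCm38.p6). They are the Mrps18 paralogs, Mrpl22 (lower with LY294002), Mrpl27 and Mrps22 (lower and higher with TSA), and Mrpl24, which rose with TSA and holds none of the motifs searched. The 7 are examples, most of them with a motif, and do not stand for the 76 genes. Mrpl45 and Mrpl35, whose calls with LY294002 held in more settings than that of Mrpl22, are not printed. All sequences are in the direction of transcription, and capitals mark the motifs CCGGAAG (ETS type), GCATGCG (NRF1 type), CACGTG (E-box) and GGGCGG (Sp1 type) on either strand.
Mrpl22 (chr11:58171414-58171663, + strand): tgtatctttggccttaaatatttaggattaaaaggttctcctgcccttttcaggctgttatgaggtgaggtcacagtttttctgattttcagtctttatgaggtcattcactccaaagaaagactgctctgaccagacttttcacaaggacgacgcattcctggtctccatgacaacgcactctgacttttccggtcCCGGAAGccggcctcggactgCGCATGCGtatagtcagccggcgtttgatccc
Mrps18a (chr17:46110754-46111003, + strand): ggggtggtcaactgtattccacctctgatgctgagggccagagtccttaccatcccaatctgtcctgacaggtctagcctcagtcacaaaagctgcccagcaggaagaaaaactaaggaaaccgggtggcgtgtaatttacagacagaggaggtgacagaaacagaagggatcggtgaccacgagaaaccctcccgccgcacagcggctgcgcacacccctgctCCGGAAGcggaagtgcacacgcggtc
Mrps18b (chr17:35916441-35916690, - strand): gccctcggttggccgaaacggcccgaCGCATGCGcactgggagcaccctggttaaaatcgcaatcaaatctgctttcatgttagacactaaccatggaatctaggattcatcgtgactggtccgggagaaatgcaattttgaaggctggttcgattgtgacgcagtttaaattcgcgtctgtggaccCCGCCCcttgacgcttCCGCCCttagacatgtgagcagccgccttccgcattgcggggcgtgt
Mrps18c (chr5:100798509-100798758, + strand): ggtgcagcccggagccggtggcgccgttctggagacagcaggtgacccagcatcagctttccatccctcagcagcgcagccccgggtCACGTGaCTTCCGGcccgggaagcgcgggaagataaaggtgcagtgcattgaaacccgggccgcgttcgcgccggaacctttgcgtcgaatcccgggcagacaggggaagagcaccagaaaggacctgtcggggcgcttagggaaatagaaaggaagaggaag
Mrpl27 (chr11:94653541-94653790, + strand): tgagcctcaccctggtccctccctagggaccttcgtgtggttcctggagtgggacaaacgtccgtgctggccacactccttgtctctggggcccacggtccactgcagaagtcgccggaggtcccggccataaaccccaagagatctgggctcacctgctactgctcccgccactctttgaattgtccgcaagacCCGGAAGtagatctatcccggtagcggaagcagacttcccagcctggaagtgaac
Mrps22 (chr9:98601680-98601929, - strand): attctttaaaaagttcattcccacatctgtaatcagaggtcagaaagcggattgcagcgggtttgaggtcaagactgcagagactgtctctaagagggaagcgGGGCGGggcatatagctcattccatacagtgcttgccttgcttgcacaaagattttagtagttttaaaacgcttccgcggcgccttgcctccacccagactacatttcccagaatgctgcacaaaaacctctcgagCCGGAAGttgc
Mrpl24 (chr3:87919294-87919543, + strand): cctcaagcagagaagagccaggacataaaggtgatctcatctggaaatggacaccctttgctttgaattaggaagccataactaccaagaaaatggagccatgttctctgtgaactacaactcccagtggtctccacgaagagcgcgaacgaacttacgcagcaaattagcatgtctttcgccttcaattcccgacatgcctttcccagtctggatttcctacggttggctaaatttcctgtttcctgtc

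Mrpl22 carried an ETS type motif 53 bases before its start and, between that and the start, an NRF1 type motif that reads on both strands. Mrps18a had an ETS type motif 26 bases upstream, Mrpl27 had one at 55 bases, and Mrps22 had one at 11 bases and an Sp1 type motif further up. In Mrps18c the ETS type motif followed an E-box 163 bases upstream, and in Mrps18b the NRF1 type motif was 224 bases upstream and a pair of Sp1 type motifs stood nearer to the start. A match is a run of letters and does not show that a factor binds there.

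The signal of a probe set is the linear MAS5 intensity, which the authors scaled to the same trimmed mean on each array. All 76 genes passed the filter, a mean signal of 50 in at least 1 group, with 121 of their 156 probe sets. Where a gene had more than 1 such probe set, the one with the highest mean log2 signal stands for the gene, and signals are compared only within a probe set. On the 15 arrays these genes had signals between 118 and 1820. The median SD of their log2 signal within groups was 0.11, from 0.05 for Mrpl27 to 0.51 for Mrpl33. Over all 11751 genes tested it was 0.17, but these include genes with signals near 50, and genes of like signal were not compared.

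**Figure D1:**
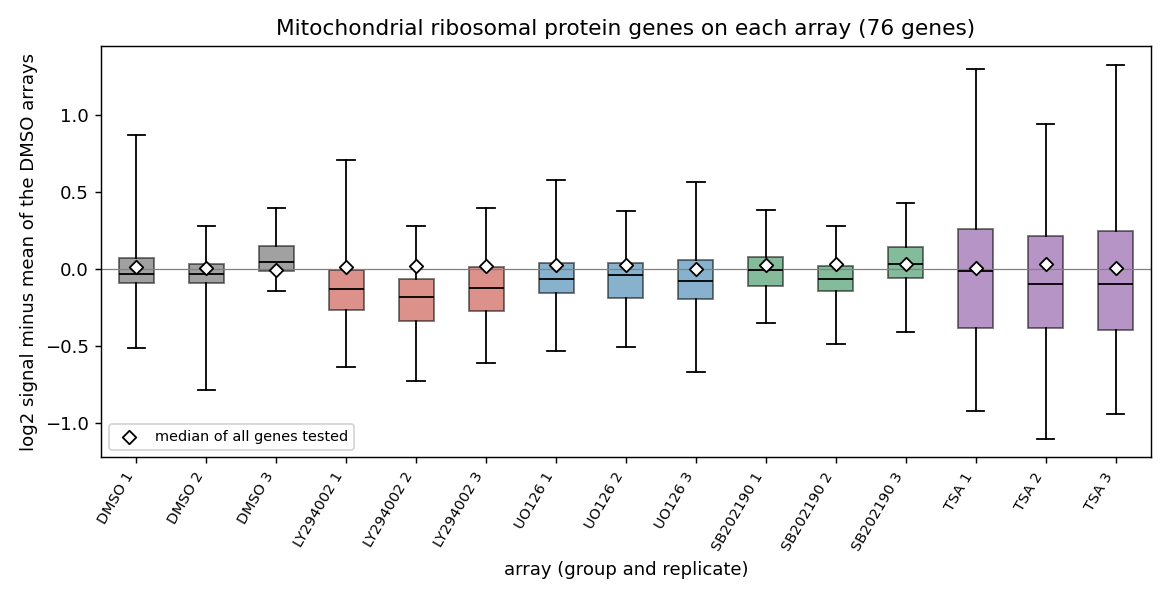
log2 signal of the 76 mitochondrial ribosomal protein genes on each of the 15 arrays, minus the mean of the 3 DMSO arrays; boxes span the quartiles with the median as a line, whiskers run to the lowest and highest gene, and diamonds show the median of all genes tested. The medians of the 3 LY294002 arrays lie between -0.18 and -0.12, and the TSA arrays have the widest boxes.

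Measured against the mean of the DMSO arrays, the median of the 76 genes lay at -0.13, -0.18 and -0.12 on the 3 LY294002 arrays on the log2 scale. On the DMSO arrays it lay at -0.03, -0.03 and 0.04, on the UO126 arrays at -0.06, -0.04 and -0.08, on the SB202190 arrays at -0.01, -0.07 and 0.03, and on the TSA arrays at -0.01, -0.10 and -0.10. The LY294002 arrays were thus the lowest of all 15 by this median, while the median of all genes lay between -0.01 and 0.03 on every array. Of the 76 genes, between 14 and 21 were above their DMSO mean on the LY294002 arrays.

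LY294002 lowered 12 of the 76 genes and raised none at an adjusted p of 0.05 (limma, Benjamini-Hochberg). The 12 are 15.8% of the 76, where 3.84% of all genes tested fell and 5.63% rose. With the replicate number as a block 15 of the 76 fell, against 6.87% of all genes. With a mean signal of 100 over all arrays as the filter 12 fell, against 4.89% of all genes. In the main setting the 12 were 7 of the 47 Mrpl genes (14.9%) and 5 of the 29 Mrps genes (17.2%). At an unadjusted p of 0.05 limma gave 26 lower and 1 higher. Shares of all genes at an unadjusted p are not given here or below, so such counts have no background beside them. The log2 change was negative for 60 of the 76 genes, with a median of -0.15, against 0.01 over all genes, and it ran from -0.65 to 0.24. The changes were small, and 2 genes passed 1.5-fold, Mrpl45 and Mrps30. In 26 genes all 3 LY294002 arrays lay below all 3 DMSO arrays, and in 2 they lay above, where 12.6% and 15.9% of all genes did so. By structure, 7 of 46 bacterial-type and 5 of 29 mitochondria-specific genes passed as lower, counting Mrps18b with the first.

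How many passed depended on the scaling. With each array centred on its median in place of the trimmed mean, the median change of all genes moved from 0.01 to 0.14 and that of the 76 genes to -0.022. Then 1 gene fell, Mrpl45 (0.928% of all genes), and 42 of 76 changes were negative. Centring used the median of all probe sets before the filter. The median signal on an array lay between 29.8 (LY294002 replicate 1) and 40.0 (DMSO replicate 2). That is under the filter's 50, so arrays were aligned at low signals. Centring moves every gene of an array by the same amount. The distance of the 76 genes from the median of all genes (-0.16) therefore cannot change with it and is no check of the falls. Without LY294002 replicate 2 the count was 2 of the 76, where 1.86% of all genes fell. Without DMSO replicate 3 it was 4, against 2.03% of all genes. Without LY294002 replicate 3, DMSO replicate 2, LY294002 replicate 1 and DMSO replicate 1 it was 6, 7, 9 and 11. There 2.34%, 2.05%, 2.55% and 3.68% of all genes fell.

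**Figure D2:**
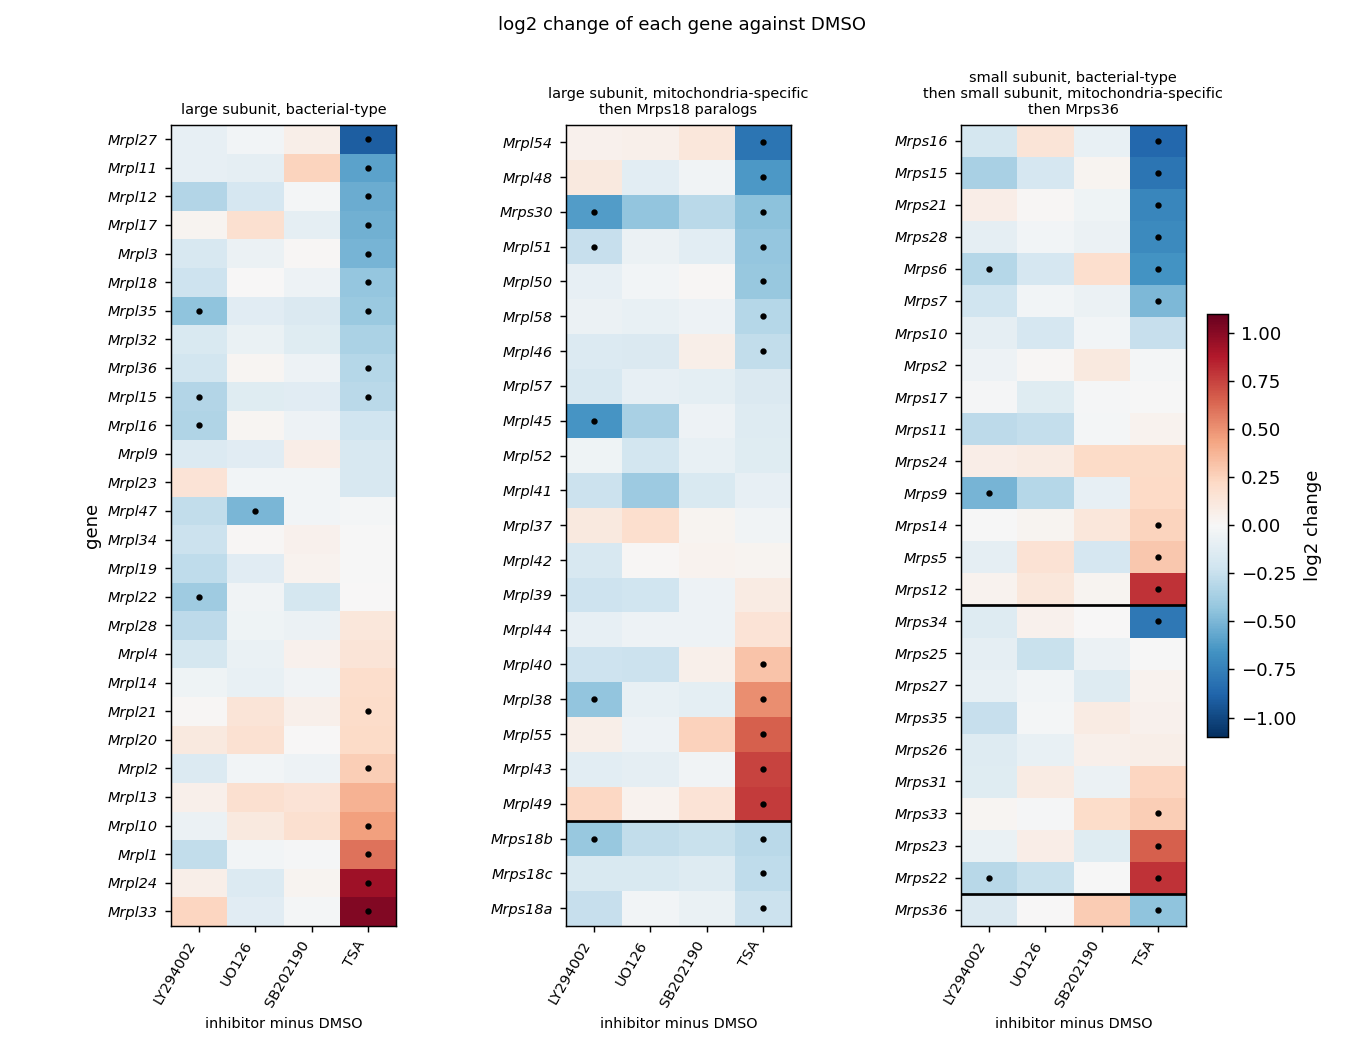
log2 change against DMSO of each of the 76 genes (vertical) with the 4 inhibitors (horizontal), grouped by subunit and origin and ordered by the change with TSA within each group; dots mark changes past an adjusted p of 0.05 in limma. LY294002 has 12 dots, all on falls (1 if arrays are centred on their medians), UO126 has 1, SB202190 has none, and TSA has 17 on rises and 27 on falls.

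The largest fall with LY294002 was that of Mrpl45, whose protein lies near the exit of the large subunit and holds the ribosome at the inner membrane. Its signals were 340.0, 348 and 354 on the DMSO arrays and 223, 214 and 228 on the LY294002 arrays. Every LY294002 array lay far below every DMSO array, and the values within each group were close together. The means were 222 ± 6.69 against 347 ± 7.07 (SD, n = 3), a log2 change of -0.65 ± 0.10 (SE) or 1.57-fold (limma adjusted p = 0.00189). The call held in all 16 other settings, with adjusted p between 0.00102 and 0.0382. Mrpl35, a bacterial-type protein of the large subunit, had 612, 655 and 658 with DMSO and 498, 453 and 465 with LY294002. The groups did not overlap, and the log2 change was -0.44 ± 0.08 (limma adjusted p = 0.00587). This call was lost when arrays were centred on their medians (limma adjusted p = 0.131) and in no other setting.

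Mrps30 gave 332, 306 and 359 with LY294002 and 381, 583 and 593 with DMSO. The first DMSO array was much lower than the others and near the LY294002 values, so that the fall of -0.62 ± 0.17 (limma adjusted p = 0.0344) had a large error. Its call was lost in 9 of 16 other settings, among them without any 1 of the 3 LY294002 arrays or without DMSO replicate 2 or 3, with adjusted p up to 0.133. Mrpl22, which lines the tunnel through which new proteins leave, had 520.0, 490.1 and 505 with DMSO and 433, 351 and 376 with LY294002. All LY294002 arrays were lower, and the change was -0.39 ± 0.08 (limma adjusted p = 0.0114, and 0.0582 to 0.290 in the 3 of 16 settings that ended the call, 1 of them without LY294002 replicate 2).

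The other genes that fell with LY294002 did so by less than 1.5-fold. Mrps9, the counterpart of a bacterial small-subunit protein, changed by -0.51 ± 0.13 (mean signal 160.1 ± 20.0 against 227 ± 15.1, limma adjusted p = 0.0308). Mrpl38, a mitochondria-specific protein of the large subunit, changed by -0.43 ± 0.10 (limma adjusted p = 0.0186). Mrps18b changed by -0.42 ± 0.09 (limma adjusted p = 0.0148) and Mrpl16, of the large subunit, by -0.33 ± 0.09 (limma adjusted p = 0.0361). For each of these 4 genes all LY294002 arrays lay below all DMSO arrays, and each call was lost in 5 to 9 of 16 other settings. All 4 were lost without LY294002 replicate 2 and without DMSO replicate 3, Mrps9 and Mrpl16 also without LY294002 replicate 1 or DMSO replicate 2, and Mrps18b and Mrpl16 also without LY294002 replicate 3. All 4 were also lost with arrays centred on their medians and with only the 2 groups compared, Mrps9 and Mrpl16 without the filter on low signals, and Mrpl16 without the variance trend. The probe sets of Mrps9 did not move alike: its other tested ones did not pass, with mean signals of 103 ± 2.71 against 101 ± 15.7 and of 91.5 ± 12.0 against 112 ± 19.7 with DMSO (SD, n = 3). The mean of its probe sets gave -0.25 (limma adjusted p = 0.103), and that of Mrpl38, whose other tested probe set did not pass, gave -0.30 (limma adjusted p = 0.107). The remaining 4 of the 12 are named after their values were seen: Mrpl15 (-0.32), Mrps6 (-0.31), Mrps22 (-0.31) and Mrpl51 (-0.25). Their limma adjusted p lay between 0.022 and 0.0457.

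**Figure D3:**
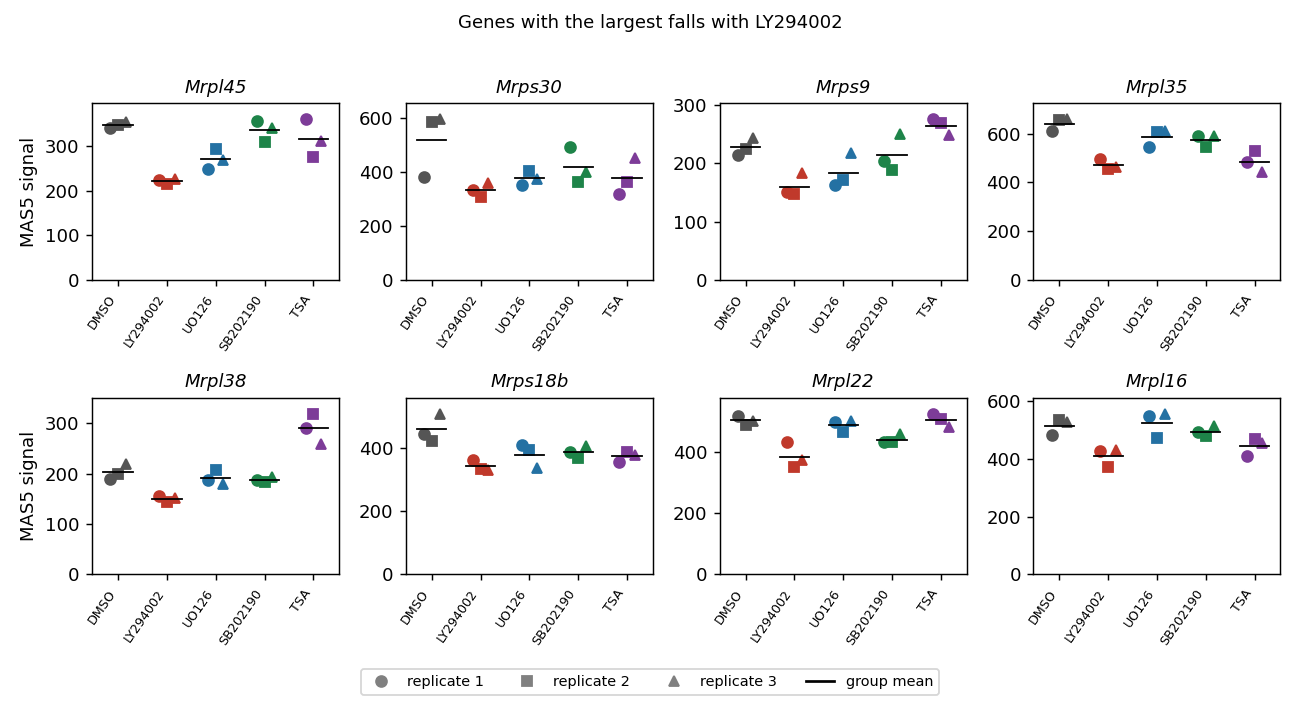
MAS5 signal of the 8 genes with the largest falls with LY294002, on each of the 15 arrays; each point is 1 array, its shape the replicate number, and lines are group means. In each panel the 3 LY294002 points lie below the 3 DMSO points, and for Mrpl38 and Mrps9 the TSA points lie above them.

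Of the markers of other cell types measured, 3 passed with LY294002, where 3.84% of all genes tested fell and 5.63% rose. Among 12 skeletal muscle markers 0 passed (limma, 1 lower at an unadjusted p of 0.05), with a median change of -0.55 and summed signals of 1106 to 1896 against 1267 to 2811 with DMSO. Among macrophage, endothelial and fibroblast markers 1 of 6, 1 of 3 and 1 of 9 fell, Pf4 (-0.97), Esam (-1.26) and Dpt (-1.03). Their summed signals were 666 to 822, 571 to 657 and 17819 to 21845, against 739 to 838, 460 to 603 and 16353 to 22920 with DMSO, and the part of these cells in the falls of mitochondrial ribosomal protein genes was not tested. Of 13 cartilage markers 0 passed (limma, 3 higher at an unadjusted p of 0.05), with a median change of 0.19.

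UO126 lowered 1 of the 76 genes, Mrpl47, and raised none (limma, where 1.57% and 1.88% of all genes tested fell and rose), with 13 lower and 1 higher at an unadjusted p of 0.05. Mrpl47 is a bacterial-type protein of the large subunit. It had 201, 178 and 159.7 with UO126 against 267, 239 and 258 with DMSO, with no overlap. The change was -0.51 ± 0.12, from a mean of 255 ± 14.2 to 179.8 ± 20.9 (SD, n = 3, limma adjusted p = 0.0371). Its call was lost in 9 of 16 other settings, with adjusted p up to 0.241. These included leaving out UO126 replicate 2 or 3 or any 1 of the 3 DMSO arrays, and without DMSO replicate 1 Mrpl41 and Mrps30 passed in its place. The next smallest p belonged to Mrpl45 (-0.36 ± 0.10, limma adjusted p = 0.081) and Mrps18b (-0.27 ± 0.09, limma adjusted p = 0.172), which did not pass. Over the 76 genes the median change was -0.05, against 0.01 over all genes. Of the markers of cell types, Col9a2 of cartilage rose (1.20) and Pf4 of macrophages fell (-0.72) with UO126, and their part in these values was not tested.

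With SB202190 none of the 76 genes passed (limma), where 2.01% and 1.51% of all genes tested rose and fell. At an unadjusted p of 0.05 there were 4 higher and 2 lower (limma). The median change was -0.03, against 0.03 over all genes, and became 0.01 with arrays centred on their medians. The smallest p were those of Mrps36 (0.28 ± 0.10, limma adjusted p = 0.173), Mrps33 (0.20 ± 0.08, limma adjusted p = 0.204) and Mrps18b (-0.24 ± 0.09, limma adjusted p = 0.207). All changes lay between -0.29 and 0.28. The signals of Mrps36 were 681, 642 and 676 with SB202190 and 499, 566 and 588 with DMSO, and the groups did not overlap. Of the markers, Chad of cartilage fell with SB202190 (-0.67).

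The kinase inhibitors were given at the same dose, so they were also set against each other. Between LY294002 and UO126 3 genes were lower with LY294002 and 0 higher (limma, with 2 higher at an unadjusted p of 0.05, where 3.82% and 4.36% of all genes tested were lower and higher). The 3 of 76 are near the share of all genes that were lower. These 3 genes were Mrpl16 (-0.36 ± 0.09, adjusted p = 0.0277), Mrpl22 (-0.35 ± 0.08, adjusted p = 0.022) and Mrpl35 (-0.31 ± 0.08, adjusted p = 0.037). With the replicate number as a block 4 were lower and 1 higher, the additions being Mrpl38 and Mrpl24. Each count in these 3 comparisons of kinase inhibitors became 0 with arrays centred on their medians.

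Against SB202190, 4 genes were lower with LY294002 and 0 higher (limma, also 0 higher at an unadjusted p of 0.05, where 3.77% and 3.61% of all genes tested were lower and higher). The 4 of 76 are little above the share of all genes that were lower. Mrpl45 differed by -0.60 ± 0.10 (adjusted p = 0.00268), Mrps6, the counterpart of bacterial S6, by -0.50 ± 0.08 (adjusted p = 0.00127), Mrps36 by -0.43 ± 0.10 (adjusted p = 0.0181) and Mrps35 by -0.35 ± 0.09 (adjusted p = 0.0374). Mrps6 had 901, 834 and 836 with LY294002, 979, 931 and 904 with UO126 and 1165, 1198 and 1265 with SB202190. The SB202190 arrays were above all others, including the DMSO arrays at 1142, 1086 and 968. Between UO126 and SB202190, Mrps6 (-0.37 ± 0.08, adjusted p = 0.00648) and Mrpl47 (-0.48 ± 0.12, adjusted p = 0.0233) were lower with UO126, and Mrpl17 (0.28 ± 0.08, adjusted p = 0.0406) and Mrps5 (0.34 ± 0.10, adjusted p = 0.0406) were higher, where 4.78% and 4.99% of all genes did so. Each of these counts, 2 of 76, is under the share of all genes. The genes of these 3 comparisons are named after their values were seen.

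TSA changed 44 of the 76 genes, 17 of them upward and 27 downward (limma). The 44 are 57.9% of the 76, near the background of 58.9% of all genes tested (30.6% higher and 28.4% lower). The genes did not move as 1 block: changes ran from -0.91 to 1.02, 33 were positive and 43 negative, and the median was -0.02. In 18 genes all TSA arrays lay above all DMSO arrays and in 30 below, where 33.0% and 30.3% of all genes did so. Changes over 1.5-fold were found in 19 of the 76, or 25.0%, against 40.2% of all genes. Leaving out 1 array at a time gave 13 to 16 higher and 19 to 28 lower, and centring each array on its median gave 11 and 20.

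**Figure D4:**
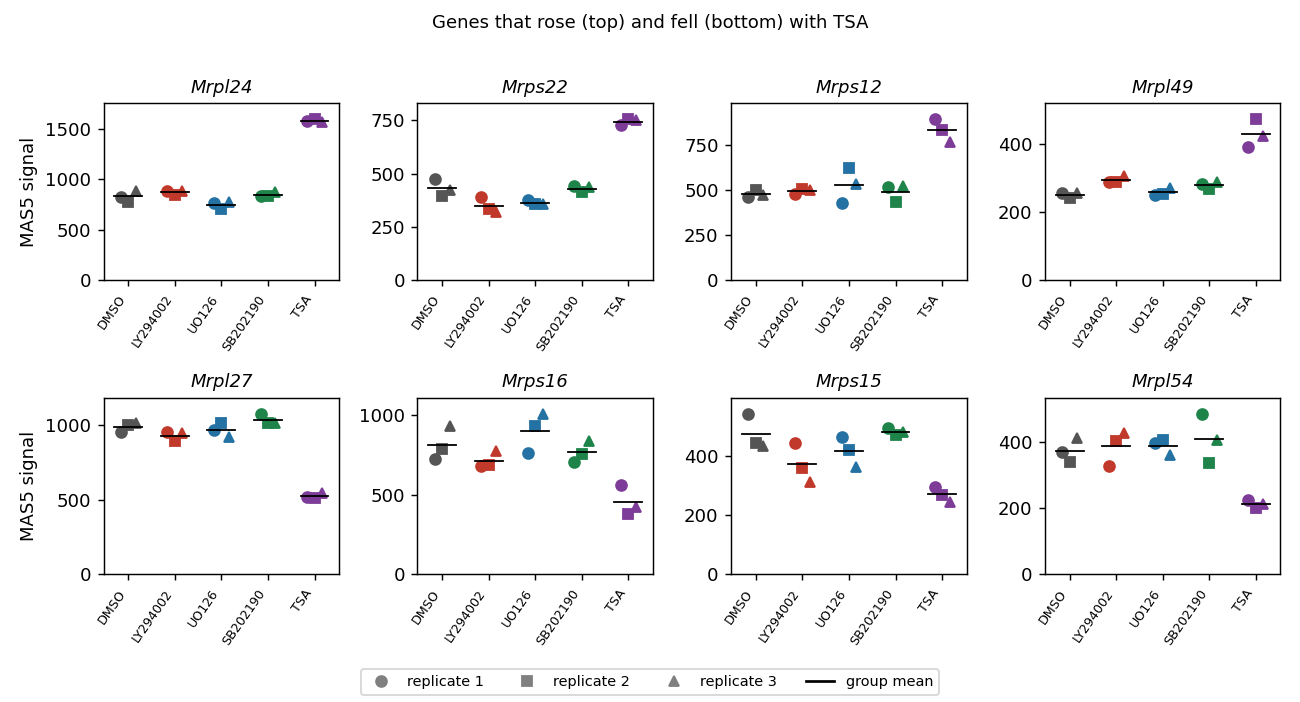
MAS5 signal of 4 genes that rose with TSA (top, largest rises other than Mrpl33) and 4 that fell (bottom, largest falls), on each of the 15 arrays; each point is 1 array, its shape the replicate number, and lines are group means. In each panel the 3 TSA points lie apart from the 3 DMSO points, as for Mrpl24 at 1567 to 1594 against 778 to 886.

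Mrpl24, a protein of the large subunit that has a counterpart in bacteria, had signals of 1576, 1594 and 1567 with TSA and 828, 778 and 886 with DMSO. The TSA arrays were close together and far above the control arrays. Its mean rose from 830.4 ± 54.0 to 1579 ± 13.4 (SD, n = 3), a log2 change of 0.93 ± 0.07 (limma adjusted p = 2.88e-08). On the arrays of the kinase inhibitors it stayed between 704 and 884. Mrps22, a mitochondria-specific protein of the small subunit, had 727, 755 and 751 with TSA and 473, 396 and 424 with DMSO. It rose by 0.79 ± 0.09 (limma adjusted p = 2.04e-06) and every TSA array lay above every other array. Mrps12, which shapes the decoding site of the small subunit, had 891, 833 and 769 with TSA and 463, 501 and 474 with DMSO. It rose by 0.79 ± 0.12 (limma adjusted p = 3.15e-05).

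The rise of Mrpl33, a small bacterial-type protein of the large subunit, was the largest at 1.02 ± 0.34, with a large error (limma adjusted p = 0.0191). Its signals were 1146, 363 and 589 with DMSO and 1544, 846 and 1571 with TSA. Both groups were widely spread and overlapped, and the call was lost without TSA replicate 1 or 3 or DMSO replicate 2 or 3, with adjusted p up to 0.119. Mitochondria-specific proteins of the large subunit that rose were Mrpl49 (0.77 ± 0.09), Mrpl43 (0.74 ± 0.10), Mrpl55 (0.65 ± 0.11) and Mrpl38 (0.51 ± 0.10). Mrps23 of the small subunit rose by 0.65 ± 0.09, and Mrpl1, which forms a mobile stalk of the large subunit, by 0.60 ± 0.12. For these 6 the limma adjusted p lay between 1.98e-06 and 0.00055, and no TSA array overlapped the DMSO arrays.

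The largest fall with TSA was that of Mrpl27, the counterpart of a bacterial protein next to the site where peptide bonds form. It had 521, 514 and 543 with TSA and 952, 997 and 1013 with DMSO. Both groups were tight and far apart, and on the kinase inhibitor arrays the gene stayed between 893 and 1075. Its mean fell from 988 ± 31.4 to 526 ± 15.2 (SD, n = 3), a log2 change of -0.91 ± 0.07 (limma adjusted p = 2.57e-08). Mrps16 of the small subunit had 560.1, 377 and 421 with TSA and 725, 788 and 928 with DMSO. The groups did not overlap, though both were spread, and the change was -0.86 ± 0.14 (limma adjusted p = 9.64e-05). Mrps34, a mitochondria-specific protein of the small subunit, had 359, 423 and 405 with TSA and 728, 684 and 629.9 with DMSO. It changed by -0.78 ± 0.08 (limma adjusted p = 1.09e-06), again without overlap.

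Other small-subunit proteins with bacterial counterparts fell with TSA as well: Mrps15 (-0.81 ± 0.13), Mrps21 (-0.72 ± 0.11), Mrps28 (-0.70 ± 0.07) and Mrps6 (-0.66 ± 0.08). In the large subunit Mrpl54 (-0.80 ± 0.13) and Mrpl48 (-0.63 ± 0.13), both specific to mitochondria, fell. The limma adjusted p of these 6 lay between 9.85e-07 and 0.000687, and their groups did not overlap. Mrpl11, at the base of the stalk that recruits translation factors, changed by -0.59 ± 0.20 (limma adjusted p = 0.0185). Its groups overlapped, and its call was lost without TSA replicate 1, DMSO replicate 1 or DMSO replicate 3, with adjusted p up to 0.0918.

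Sorted by role, each kind of protein except the Mrps18 paralogs and Mrps36 held genes that rose and genes that fell with TSA. Of 28 bacterial-type proteins of the large subunit 6 rose and 9 fell, and of 20 mitochondria-specific ones 5 rose and 7 fell. Of 15 bacterial-type proteins of the small subunit 3 rose and 6 fell, and of 9 mitochondria-specific ones 3 rose and 1 fell. Together, 9 of 46 genes of bacterial type rose and 18 fell, with a median change of -0.10, and of 29 mitochondria-specific genes 8 rose and 8 fell, with a median of 0.03. These counts include the Mrps18 paralogs in the bacterial type, and the difference between the types was not tested.

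The Mrps18 genes are paralogs that share 1 bacterial ancestor, S18; Mrps18a sits in the large subunit and Mrps18b and Mrps18c in the small one. All 3 had negative changes with every inhibitor. Mrps18a had 426, 438 and 520.5 with DMSO and 398, 411 and 366 with TSA. Mrps18b had 442, 422 and 506 with DMSO and 354, 386 and 377 with TSA. Mrps18c had 473, 456 and 529 with DMSO and 397, 427 and 379.5 with TSA. In all 3 the TSA arrays lay below the DMSO arrays, and the third DMSO array was the highest. With TSA they changed by -0.23 ± 0.09, -0.29 ± 0.09 and -0.28 ± 0.09 (limma adjusted p = 0.0406, 0.016 and 0.0215). All 3 calls were lost without DMSO replicate 3, without TSA replicate 1 and with arrays centred on their medians, and those of Mrps18a and Mrps18c also without TSA replicate 3. That of Mrps18a was lost in 8 of 16 other settings, also with quantile normalization, without the filter, without the variance trend and with only the 2 groups compared, with adjusted p up to 0.205. With LY294002 the changes were -0.26 ± 0.09 for Mrps18a and -0.17 ± 0.09 for Mrps18c, which did not pass (limma adjusted p = 0.0961 and 0.302). Without DMSO replicate 3 the change of Mrps18a turned positive with UO126 (0.056) and SB202190 (0.014).

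Of the 76 genes, 49 passed in at least 1 of the 4 comparisons with DMSO and 27 in none. Among the 49, 36 passed with TSA alone, 4 with LY294002 alone (Mrpl16, Mrpl22, Mrpl45 and Mrps9), 1 with UO126 alone, and 8 with both LY294002 and TSA. With TSA 58.9% of all genes tested passed, so many genes of any kind that passed with LY294002 would pass with TSA too. The shares of all genes that passed in at least 1 comparison, or with both LY294002 and TSA, are not given here. The comparisons share the DMSO arrays, so a DMSO array that is high moves all 4 down together. Of the 8 that passed with LY294002 and TSA, Mrpl15, Mrpl35, Mrpl51, Mrps18b, Mrps30 and Mrps6 were lower with both. Mrpl38 and Mrps22 were lower with LY294002 and higher with TSA. Mrpl38 had 155, 143 and 152 with LY294002, 190.1, 198 and 219.7 with DMSO and 290.1, 318 and 259 with TSA, and the 3 groups did not overlap. Mrps22 had 390.4, 335 and 319.9 with LY294002, below all of its DMSO and TSA values. Mrpl45, with the largest fall with LY294002, had 359.9, 276 and 313 with TSA, where the change was -0.14 ± 0.10 (limma adjusted p = 0.248).

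Where a gene had several tested probe sets (30 genes), they could be set side by side. With TSA all probe sets of a gene had the same sign in 23 of the 30 and the same call in 16, and none passed in opposite directions. With LY294002 these numbers were 20, 27 and 0. Both probe sets of Mrpl27 fell (-0.91 and -1.38). Mrpl49 rose in 1 probe set (0.77) and not in the other (-0.14, adjusted p = 0.353). For Mrpl50 the probe set used fell (-0.41) while the other gave 0.14 (adjusted p = 0.412). Mrpl28 was not past the threshold by the probe set used (0.13, adjusted p = 0.352), but its other probe sets rose by 0.82 and 0.57. These 4 are named after their values were seen, and adjusted p are from limma. Over all 121 probe sets TSA gave 25 higher and 36 lower (28.1% and 26.6% of all probe sets tested), and LY294002 0 and 13 (4.45% and 3.33%).

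Other genes of mitochondrial translation were looked up in the same way. Of 36 translation and assembly factors, which build or drive this ribosome or, in some cases, are part of it, TSA raised 10 and lowered 10. These 20 are 55.6% of the list, near the 58.9% of all genes tested that changed with TSA (30.6% higher and 28.4% lower). Ptcd3 (0.71) and Mpv17l2 (0.77) were among those that rose, and Gadd45gip1 (-0.82), whose protein is part of the large subunit, among those that fell. LY294002, UO126 and SB202190 changed none of the 36 (limma), with 3 higher and 7 lower, 0 and 2, and 3 and 0 at an unadjusted p of 0.05. Of 15 aminoacyl-tRNA synthetases, which charge the mitochondrial transfer RNAs, LY294002 lowered 1, Yars2 (-0.48), and TSA lowered 3, Yars2 (-0.73), Ears2 (-0.65) and Cars2 (-0.44), or 20.0% of the list changed with TSA. UO126 and SB202190 changed none (limma; 1 lower and 1 higher at an unadjusted p of 0.05). Ribosomal proteins of the cytosol served for comparison: of 45 tested, LY294002 changed none (limma; 2 higher and 2 lower at an unadjusted p of 0.05) with a median of 0.07, and TSA raised 2 and lowered 5 (15.6% changed) with a median of 0.12. The difference between the mitochondrial and the cytosolic proteins was not tested.

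Of 17 regulators of mitochondrial gene expression TSA raised 7 and lowered 4, or 64.7% of the list, against 58.9% of all genes tested. Both Gabpb genes fell, Gabpb2 from a mean of 349 ± 12.6 to 116 ± 12.2 (SD, n = 3), a change of -1.59 ± 0.13 (limma adjusted p = 4.82e-08), and Gabpb1 with a change of -0.57. Gabpa, which binds the DNA, fell too (-0.39, limma adjusted p = 0.0344). Pprc1, a coactivator related to PGC-1α, changed by -1.39, and Tfb2m, a transcription factor of the mitochondrial genome, rose by 0.85. Gabpb1 and Gabpa are named after their values were seen. More of the 17 rose (7) than fell (4), and of those that rose only Tfb2m is named here. With LY294002, UO126 and SB202190 none of the 17 passed (limma), and at an unadjusted p of 0.05 there were 1 higher and 1 lower, 1 and 2, and 1 and 2.

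Many cell type markers passed with TSA, where 28.4% of all genes tested fell and 30.6% rose. Of 13 cartilage markers 12 fell, with a median change of -1.91, and their summed signals were 14407 to 16398 against 23500 to 36707 with DMSO. Col2a1 did not pass (0.02). Of 12 skeletal muscle markers 10 fell, with summed signals of 407 to 470 against 1267 to 2811. Of 6 macrophage markers 5 fell and 1 rose (summed signals of 541 to 621 against 739 to 838), and of 3 endothelial markers 1 fell (333 to 373 against 460 to 603). For the endothelial markers 1 of 3 is near the share of all genes that fell. Of 9 fibroblast markers 5 fell and 1 rose (13727 to 15734 against 16353 to 22920). The part of these cell types in the changes of the mitochondrial ribosomal protein genes was not tested.

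Promoter windows of 300 bases, 250 before and 50 after the start, were held by RefSeq for 67 of the 76 genes (73 windows), the others being Mrpl13, Mrpl15, Mrpl19, Mrpl38, Mrpl4, Mrpl54, Mrps28, Mrps34 and Mrps35. The motif CCGGAAG was in 34.2% of the 73 windows, against 8.86% of all 32851 windows in the table. GCATGCG was in 11.0% against 3.58%, and ATGGCGG (YY1 type) in 16.4% against 4.05%. At least 1 of these motifs was in 49.3% of the windows, against 14.8% of all. TGACGTC (CRE type) was in 5.48% against 3.21%, CACGTG in 9.59% against 7.15%, and GGGCGG in 53.4% against 35.7%. Mrpl2 has 3 overlapping windows in which 1 E-box is counted each time, and counted by gene CACGTG was in 7.46% of the 67 genes against 8.09% of all 27025 genes. For the other 5 motifs the share by gene was also higher among the 67. The 27025 genes were taken whether or not these cells expressed them. Windows of like base composition were not compared. Both strands were searched. GCATGCG and TGACGTC can overlap their own reverse complement by all but 1 base, and CACGTG is its own. Of the YY1 type matches 1 lay wholly before the start, which is why the printed sequences show none.

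**Figure D5:**
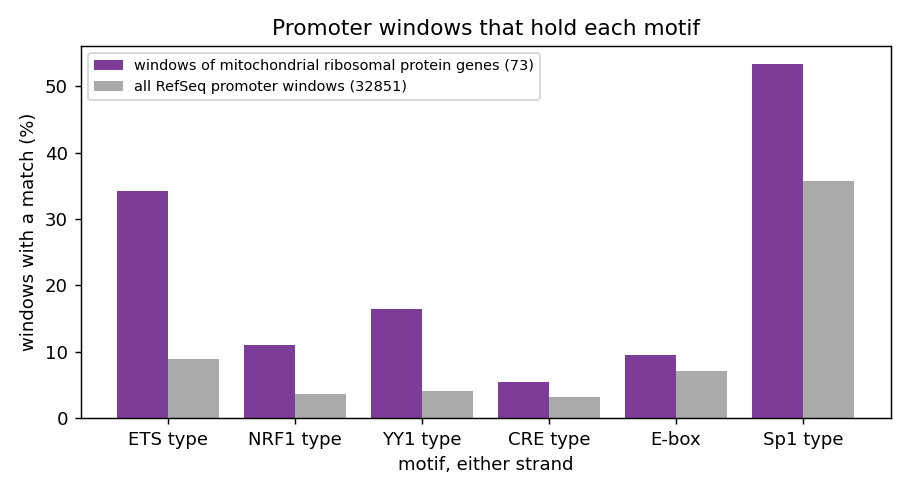
Share of promoter windows (percent, vertical) that hold each of 6 motifs on either strand, for the 73 windows of mitochondrial ribosomal protein genes and for all 32851 RefSeq windows. The ETS type motif is in 34.2% of the first and 8.86% of the second, and the Sp1 type motif is the most common in both.

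The ETS type motif was not confined to 1 direction of change. It was in 7 of the 16 genes with a window that rose with TSA, in 12 of the 23 that fell and in 6 of the 28 that did not pass. With LY294002 it was in 4 of the 10 that fell and in 21 of the 57 others. The NRF1 type motif was in 2 of 16, 2 of 23 and 4 of 28 genes by call with TSA, and the YY1 type motif in 1, 5 and 6. Among the genes printed, Mrps22 and Mrpl27 both carried the ETS type motif while the first rose and the second fell with TSA, and Mrpl24 rose without it. These are counts of letters in fixed windows, and no difference between them was tested.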

How the data were processed

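Total RNA of 15 chondrocyte cultures was hybridised by the authors to Affymetrix MOE 430 2.0 arrays, 3 for each of 5 groups. The deposited table holds MAS5 signal, a linear intensity per probe set, scaled by the authors so that the mean of each array, trimmed by 2% at each end, is 150; its version is not given in the sources used here. Such values hold no depth, so precision rests on how many arrays there are. Symbols came from the platform annotation, and all 76 genes matched the mouse RefSeq table by gene ID. The log2 of each signal, raised to 1 where it was lower, entered limma 3.58.1 in R 4.3.3 (lmFit with 1 term per group over the 15 arrays, eBayes with a trend), after a filter that kept 21765 probe sets with a mean of 50 in at least 1 group. Benjamini-Hochberg adjustment ran over all of them in each of 7 comparisons, with a threshold of 0.05. One probe set per gene, the one with the highest mean log2 signal, left 11751 genes. The model was tested on simulated data.

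The genes and lists were chosen with earlier results of these data known. Genes were named by rule: the 10 largest rises and falls with TSA among those past the threshold with a group mean of 100, at most 8 in each direction for the other inhibitors or the 3 with the smallest p, the Mrps18 paralogs, and at most 3 per further list. The lists were mitochondrial translation and assembly factors, aminoacyl-tRNA synthetases, regulators of mitochondrial gene expression, cytosolic ribosomal proteins, and markers of cartilage, skeletal muscle, macrophages, endothelium and fibroblasts. Alternatives were quantile normalization, median centring, 2 other filters, an addition of 16 to the signal, a floor of 50, no trend, the replicate number as a block, averaging a gene's probe sets, 2 groups alone, and leaving out each array. The study's methods place DMSO and LY294002 cultures in 3 independent experiments, but the labels do not tie replicate numbers to them. The main model holds no term for such pairing. Deviations from the group means correlated over 0.1 for every number in LY294002 against DMSO (0.42, 0.16 and 0.30). The same held for UO126 against DMSO (0.42, 0.23 and 0.22) and LY294002 against UO126 (0.34, 0.17 and 0.22). In each other comparison at least 1 number stayed under 0.1, though all correlations were positive.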

Additional observations from a re-analysis of the deposited data

How the results depend on the processing

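With LY294002, 12 genes fell and 0 rose. The fall count was 6 without the filter (1.65% of all genes fell), 7 without the variance trend (3.29%) and 2 with the 2 groups alone (1.04%). It was 1 with arrays centred on their medians (0.928%, median change -0.022 in place of -0.15). Leaving out 1 array gave 2 to 11 (0 higher, median -0.17 to -0.12). The mean of all probe sets gave 1 higher, Mrpl49. With UO126 the 1 fall became 0 with centring, without the filter, without the trend and with the 2 groups alone, and 0 to 2 when 1 array was left out (0 higher, median -0.08 to -0.03). With SB202190 the counts stayed at 0 and 0 in each setting run, and the median ran from -0.04 to 0.00 when 1 array was left out. With TSA, 17 genes rose and 27 fell. Centring gave 11 higher (20 lower), and leaving out 1 array gave 13 to 16 higher and 19 to 28 lower (median -0.08 to -0.02).

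Between LY294002 and UO126 the 0 higher became 1 with quantile normalization, 1 with the replicate block and 2 with the mean of probe sets. The 3 lower became 0 with centring or the 2 groups alone, and 0 to 2 (0 higher) when 1 array was left out. Between LY294002 and SB202190 the 4 lower became 0 with centring, 7 with the filter at a mean of 100, 11 with the replicate block, 9 with the mean of probe sets, and 2 to 4 (0 higher) when 1 array was left out. Between UO126 and SB202190 the 2 higher became 0 with centring, without the filter, with the mean of probe sets and with the 2 groups alone, 1 without the trend and 0 to 1 when 1 array was left out. The 2 lower became 0 with centring, 4 with the replicate block and 1 to 2 when 1 array was left out.

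For the comparisons with DMSO the replicate block changed no other count by over 1.5 times (15 lower in place of 12 with LY294002, 12 of them shared, and 18 higher and 29 lower with TSA). The labels do not say for any group whether arrays of the same number share a preparation. In every group replicate 2 had the highest median signal, and a term for the replicate number was not in the main model. For SB202190 against DMSO the deviations of same-numbered arrays correlated at 0.13, 0.09 and 0.23. Without DMSO replicate 3 the change of Mrps18a turned from negative to 0.056 with UO126 and 0.014 with SB202190, and when 1 array was left out it ran from -0.089 to 0.056 and from -0.13 to 0.014. Of the named genes' values in other settings, 120 of 160 with LY294002 and 346 of 368 with TSA kept direction and call. The cause of these shifts was not tested. Signals near background were filtered, and 3 arrays a group limit what could be detected.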
